A study of Mus musculus with 4 samples.

Results

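The loci of 6 homeobox transcription factor genes that pattern the forebrain, Dlx1, Dlx2, Dlx5, Dlx6, Nkx2-1 and Pax6, carried 115 of the 88737 probes on a mouse CpG island array. All probes whose mm9 position lay in 4 windows around these genes were taken, and no measured value entered the choice. The window of Dlx1/Dlx2 on chromosome 2 was 30 kb wide and held 32 probes from chr2:71367466 to 71385026. The window of Dlx5/Dlx6 on chromosome 6 was 35 kb wide and held 24 probes from chr6:6810707 to 6831977. The window of Nkx2-1 on chromosome 12 was 20 kb wide and held 25 probes from chr12:57633864 to 57637717. The window of Pax6 on chromosome 2 was 45 kb wide and held 34 probes from chr2:105500096 to 105522627.

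The DNA came from whole brains of C57BL/6J offspring that were 1 day old. Dams had been given 25 uL of vehicle (Sham group, 5 dams) or of a titanium dioxide nanoparticle suspension at 100 ug per mouse (TiO2-H group, 6 dams) into the trachea during pregnancy, on gestational day 10.5 by the treatment protocol and on day 14 by the sample names. DNA of 2 offspring per dam was pooled by group and sex, so that each of the 4 groups, males and females of Sham and of TiO2-H, had 1 pool and 1 array, and no value of a single array has a replicate. The samples were grouped by their titles, since the description field calls all 4 of them male and vehicle-exposed. In pooled DNA of a whole brain, another mix of cell types and another methylation level within a cell type cannot be told apart.

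Dlx1, Dlx2, Dlx5 and Dlx6 encode distal-less homeodomain proteins that direct the ventral forebrain towards inhibitory (GABAergic) neurons, and they lie in the genome as linked pairs that are transcribed towards each other. Nkx2-1 encodes the homeodomain protein that specifies the medial ganglionic eminence and the ventral hypothalamus, and it acts upstream of interneuron fates. Pax6 encodes a paired-domain protein that maintains dorsal (cortical) progenitors, and it and the ventral factors restrict each other's territory. CpG islands of such developmental regulators are long, and they are known for little DNA methylation at their starts and for silencing by Polycomb proteins in cells that do not use the gene. Methylated DNA immunoprecipitation (MeDIP) enriches sonicated fragments, here mainly 200 to 800 bp long, with an antibody against 5-methylcytosine. In 85 of 102 pairs of adjacent member probes the starts lay under 200 bp apart. Neighbouring probes can therefore read the same fragments, and probes that move together within a run are not independent.

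The density of CG dinucleotides in the sequence sets how strongly MeDIP can enrich a fragment, and the promoters of the members are printed here to show how much they differ in it. RefSeq's promoter table (GRCm38.p6) had entries for 4 of the 6 genes. The 250 bases before each start are given in gene orientation with each CG in capitals. CG reads the same on both strands. These positions belong to GRCm38.p6 and cannot be set against the mm9 positions of the probes.
Dlx1 (GRCm38.p6, chr2:71529195-71529444, plus strand): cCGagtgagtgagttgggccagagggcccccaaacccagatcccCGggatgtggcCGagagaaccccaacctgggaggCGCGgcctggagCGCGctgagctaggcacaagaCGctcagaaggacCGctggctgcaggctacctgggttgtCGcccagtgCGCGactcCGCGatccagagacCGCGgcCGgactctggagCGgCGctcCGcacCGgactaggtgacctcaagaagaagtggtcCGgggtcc
Dlx2 (GRCm38.p6, chr2:71546755-71547004, minus strand): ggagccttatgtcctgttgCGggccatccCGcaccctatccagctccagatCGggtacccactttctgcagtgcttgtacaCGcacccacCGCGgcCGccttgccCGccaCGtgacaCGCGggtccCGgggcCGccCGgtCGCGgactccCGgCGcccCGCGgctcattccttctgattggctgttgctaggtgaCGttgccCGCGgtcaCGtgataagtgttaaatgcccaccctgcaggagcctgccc
Nkx2-1 (GRCm38.p6, chr12:56536909-56537158, minus strand): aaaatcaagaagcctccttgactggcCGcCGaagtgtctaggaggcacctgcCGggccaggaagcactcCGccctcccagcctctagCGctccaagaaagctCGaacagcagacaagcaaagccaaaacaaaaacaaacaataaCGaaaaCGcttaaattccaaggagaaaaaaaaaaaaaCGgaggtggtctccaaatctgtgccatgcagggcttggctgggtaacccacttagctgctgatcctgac
Pax6, upstream start (GRCm38.p6, chr2:105668646-105668895, plus strand): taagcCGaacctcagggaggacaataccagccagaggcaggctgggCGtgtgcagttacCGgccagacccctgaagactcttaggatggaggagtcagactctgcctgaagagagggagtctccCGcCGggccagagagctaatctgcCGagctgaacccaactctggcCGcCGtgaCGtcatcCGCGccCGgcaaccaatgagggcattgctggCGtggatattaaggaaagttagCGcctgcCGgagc
Pax6, downstream start (GRCm38.p6, chr2:105682213-105682462, plus strand): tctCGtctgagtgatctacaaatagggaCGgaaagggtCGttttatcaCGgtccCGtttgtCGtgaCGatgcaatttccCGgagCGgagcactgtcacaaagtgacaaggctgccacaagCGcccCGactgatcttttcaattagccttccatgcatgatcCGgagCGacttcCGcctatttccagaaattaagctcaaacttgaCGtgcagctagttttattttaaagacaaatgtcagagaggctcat

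The Dlx1 sequence held 22 CG, a number that 14.8% of the 32851 promoters of the table reached, and the Dlx2 sequence held 24, reached by 12.0%. Both Pax6 sequences held 15, reached by 27.3%, and the Nkx2-1 sequence held 9, reached by 40.3%. The median promoter had 6, and 92.1% had at least 1. The sequence before the Nkx2-1 start thus had fewer CG than those before the Dlx1, Dlx2 and Pax6 starts.

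Before the loci are compared, the arrays differ in ways that touch every value. X-linked input, which is lower in male than in female DNA, went against the sex label of both TiO2-H arrays. Over 2471 X-linked probes, median input relative to autosomes was higher by 0.76 (log2) on the male-labelled TiO2-H array than on the Sham male array, and the female-labelled TiO2-H array minus the Sham female array gave -0.78. The female-labelled TiO2-H array differed from the Sham male array by 0.0015, and the male-labelled TiO2-H array minus the Sham female array gave -0.0143. For this reason the TiO2-H arrays are called by their labels, and the main results are also given with the arrays paired by X-linked input. Both arrays labelled male shared slide 1 and both labelled female slide 2, so slide and labelled sex cannot be told apart. Sham arrays had position 1 and TiO2-H arrays position 2, and exposure and position cannot be told apart either.

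The MeDIP channel (Cy5) was dim at these loci. Input (Cy3) was well above background, by the scanner software's own call, on all 4 arrays for 98 of the 115 probes, but Cy5 was so, or readable in short, for 16. Cy5 was well above background at 44 member probes (38.3%) for Sham male, 55 (47.8%) for Sham female, 17 (14.8%) for TiO2-H labelled male and 25 (21.7%) for TiO2-H labelled female. The same shares over the 85850 autosomal probes were 51.2%, 58.8%, 24.6% and 32.9%. At 54 member probes (47.0%) no array had a readable MeDIP signal, against 35.7% of autosomal probes, and at 16 (13.9%) all 4 arrays had one, against 24.0%. The member loci were thus dimmer in MeDIP than the array as a whole on each of the 4 arrays. Input was readable less often at the members as well. Cy3 was well above background at 98, 107, 102 and 111 of the 115 probes, in the same order of arrays. Over autosomal probes the Cy3 shares were 94.0%, 97.4%, 95.6% and 98.2%. The part of probe or input brightness in the dim MeDIP signal was not tested.

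**Figure D1:**
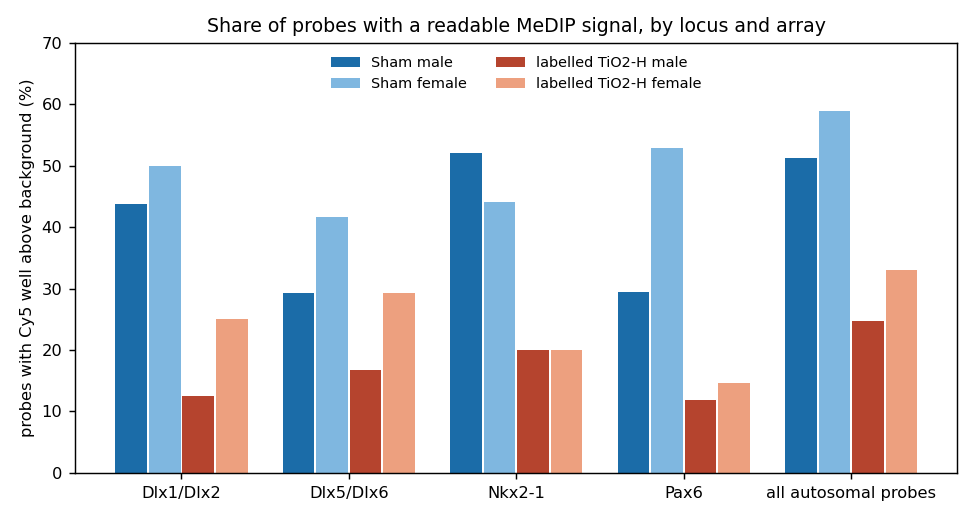
Share of probes (%, y axis) whose Cy5 (MeDIP) signal was well above background, for the 4 loci and for all 85850 autosomal probes, with 1 bar for each of the 4 arrays and no replicates. At every locus both TiO2-H arrays lie at or below both Sham arrays, as they do over all autosomal probes, where the shares ran from 24.6% to 58.8%.

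A readable signal was missing more often on the TiO2-H arrays than on the Sham arrays, but not on them alone. The Sham female array alone was readable at 17 member probes (14.8%), against 12.8% of autosomal probes. For the Sham male array alone these values were 5 (4.35%) and 5.01%. At 35 member probes (30.4%) at least 1 Sham array and no TiO2-H array was readable, and at 0 probes the reverse held. Over autosomal probes these shares were 30.8% and 0.028%. Cy5 had been multiplied by a linear dye factor of 89.4 on the Sham male and 104 on the Sham female array, and 175 on the male-labelled and 121 on the female-labelled TiO2-H array. The part of this difference in brightness in the falls given for each locus was not tested.

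**Figure D2:**
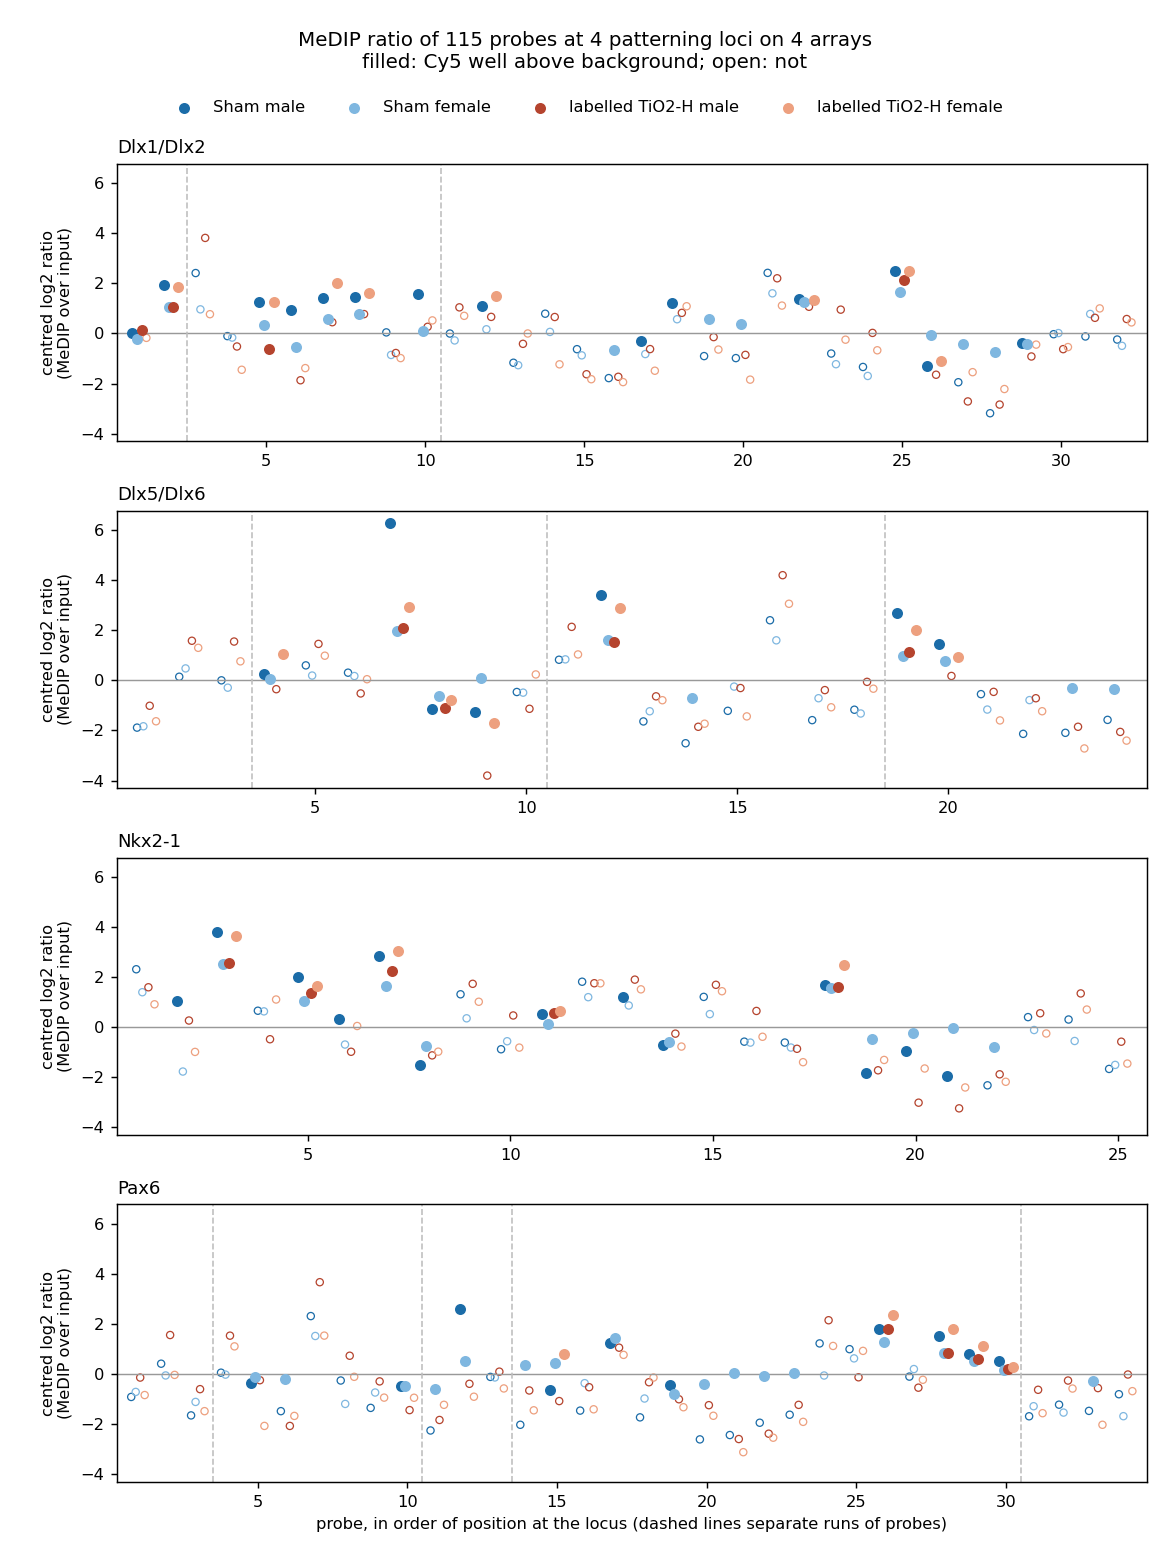
Relative DNA methylation (log2 of Cy5 over Cy3, centred on the array's autosomal median, y axis) of each of the 115 probes (x axis, order along the chromosome) on the 4 arrays, 1 point per array. Filled points have Cy5 well above background and open points do not. Filled points on all 4 arrays occur at 16 probes, most of them above 0, and the highest point is the Sham male value of 6.27 at Dlx5/Dlx6.

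Relative methylation is given as the log2 of processed MeDIP over input signal, minus the median of this value over the autosomal probes of the array. Its median absolute deviation over autosomal probes was 1.08 on the Sham male and 0.60 on the Sham female array. It was 0.91 on the male-labelled and 1.04 on the female-labelled TiO2-H array, so values spread least on the Sham female array. At the 16 probes readable on all 4 arrays, median relative methylation was 1.87 on the Sham male and 1.06 on the Sham female array. It was 1.24 on the male-labelled and 1.94 on the female-labelled TiO2-H array. The 20591 autosomal probes readable on all 4 arrays had medians of 1.65, 1.09, 1.09 and 1.70 in the same order. The Sham male array and the female-labelled TiO2-H array were high, and the other two were low, at the members and over the autosomes alike. The female-labelled TiO2-H array exceeded the male-labelled TiO2-H array at 16 of 16 probes, and the Sham male array exceeded the Sham female array at 15 of 16.

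Paired by X-linked input, the arrays differed less at these probes. The median absolute difference over the 16 probes was 0.61 for the male-labelled TiO2-H array against Sham male and 0.91 for the female-labelled TiO2-H array against Sham female. It was 0.31 for the female-labelled TiO2-H array against Sham male and 0.14 for the male-labelled TiO2-H array against Sham female. Over the 20591 autosomal probes the 4 values were 0.67, 0.69, 0.32 and 0.26. Pearson's r between arrays over the 16 probes ran from 0.77 (Sham male and male-labelled TiO2-H array) to 0.98 (Sham female and female-labelled TiO2-H array), a description only, since probes share the array and its probe affinities.

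**Figure D3:**
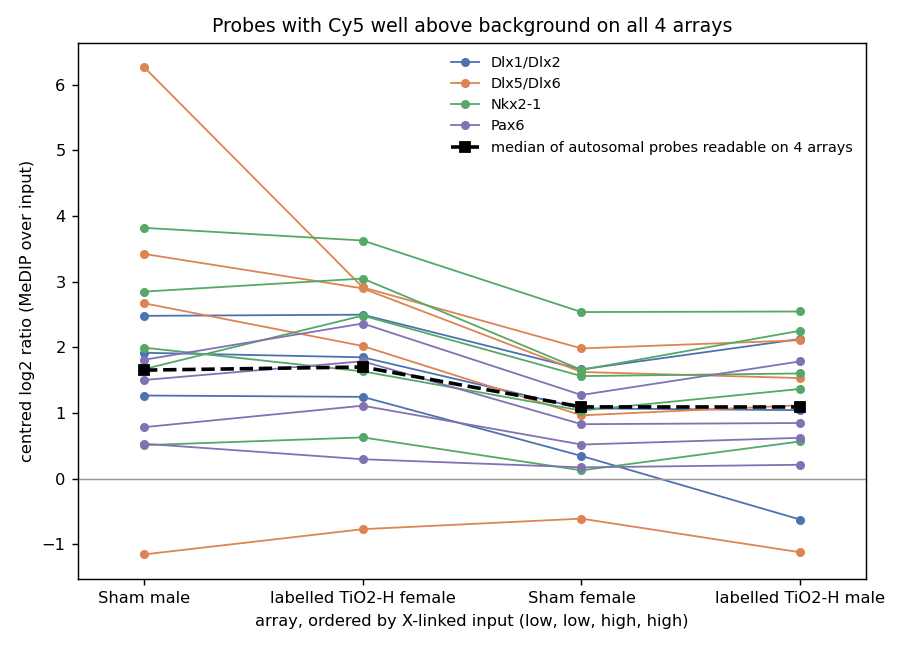
Centred log2 ratio of MeDIP over input (y axis) for the 16 member probes with Cy5 well above background on all 4 arrays, 1 line per probe coloured by locus, with the median of 20591 autosomal probes of the same kind as a dashed line. The arrays are ordered by X-linked input. The lines step down between the female-labelled TiO2-H array and the Sham female array at 15 of 16 probes, as the dashed line does.

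The study asked which CpG islands change after exposure within each sex, by a fold of 1.5. A probe counted as measured if it had Cy3 well above background on the pair of arrays compared, a readable Cy5 signal on 1 or both, and a scanner p-value of the log ratio under 0.05 on 1 or both. A probe is said to have risen at a fold of 1.5 or more and to have fallen at 0.67 or less. There is no test behind these words, because each side is 1 array. Where the dimmer array had no readable Cy5, the dim signal was raised to the lowest readable Cy5 of that array, and the fold is a bound, written "at least N-fold".

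In the male comparison (male-labelled TiO2-H array over Sham male), 35 of the 115 member probes were measured, 0 rose and 21 fell. The falls were 60.0% of the measured members, against 56.0% of 34782 measured autosomal probes, and 3.14% of those rose, so the share of falls was near the background. In 12 of the 21 falls Cy5 was dim on the male-labelled TiO2-H array, and 5 of these 12 still passed the fold as a bound. Of the 14 members readable on both arrays 9 fell and 0 rose, where 58.4% of readable autosomal probes fell and 4.03% rose.

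In the female comparison (female-labelled TiO2-H array over Sham female), 47 member probes were measured, 13 rose and 26 fell. The rises were 27.7% of the measured members, against 28.8% of 41116 autosomal probes, and the falls 55.3%, against 36.3%. Cy5 was dim in 24 of the 26 falls, and 3 of these 24 passed the fold as a bound. Of the 17 members readable on both arrays 13 rose and 2 fell, with a median log2 fold of 0.92, where 53.7% of readable autosomal probes rose and 7.21% fell. The direction of the members in the female comparison therefore depended on whether dim probes were counted. The rises also depended on scaling: with the arrays brought to a common spread, 1 member rose and 24 fell.

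The Dlx1/Dlx2 locus had 3 runs of probes (gaps of at most 1000 bp). The files do not say which of both genes a run belongs to. In the male comparison 12 probes were measured, 6 of them fell and 0 rose, with a median log2 fold of -0.62. The falls were 50.0% of these probes, against 56.0% of measured autosomal probes, whose median was -0.68. In the female comparison 14 were measured, 4 rose and 7 fell, with a median of -0.45, which became 0.80 over the 6 probes readable on both arrays. Rises were 28.6% and falls 50.0%, against 28.8% and 36.3% of measured autosomal probes, whose median was -0.10. The second run, chr2:71378997-71379702 with 8 probes, had medians of opposite sign, taken over 5 probes and over 3 of these. All 5 of its probes measured in the male comparison fell (median log2 fold -1.31, or -0.86 with dim signals raised to the bound), and 2 of the 3 measured in the female comparison rose (median 0.82). The 2 that rose had starts 68 bp apart and are not independent, and both were dim on the male-labelled TiO2-H array. The other fell in both comparisons. Arrays of 1 exposure differed there as well: all 5 measured probes were lower on the Sham female than on the Sham male array (median -0.92), and all 3 measured probes were higher on the female-labelled than on the male-labelled TiO2-H array (median 1.55).

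Within that run, the probe at chr2:71379350-71379394 was 1 of 5 member probes that fell in both comparisons. Its log2 ratio was 0.93 on the Sham male and -0.53 on the Sham female array, and -1.87 on the male-labelled and -1.38 on the female-labelled TiO2-H array. Cy5 was readable on both Sham arrays and on neither TiO2-H array, and both TiO2-H values lay below both Sham values. The male comparison was a drop of at least 3.21-fold and the female one of at least 1.23-fold. Its neighbour at chr2:71379207-71379251, readable on 4 arrays, had ratios of 1.27, 0.35, -0.62 and 1.25 in the same order, so that the male-labelled TiO2-H array alone was low there.

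The third run, chr2:71381049-71385026, held 22 probes, of which 5 were measured in the male comparison and none of these passed the fold (median -0.35). The female comparison measured 9, with 1 rise and 6 falls (median -1.11, or -0.04 with bounds). Among probes with readable Cy3 on 4 arrays, the highest mean ratio of the locus was at chr2:71383777-71383821, with 2.48 on the Sham male and 1.67 on the Sham female array, and 2.13 on the male-labelled and 2.50 on the female-labelled TiO2-H array. All 4 values were readable and well above the array medians, and the Sham female array was the lowest. The lowest mean ratio was at chr2:71384105-71384149, with -3.18, -0.72, -2.84 and -2.22 in the same order. There the Sham female array alone had a readable MeDIP signal. The first run, chr2:71367466-71367575, had only 2 probes, and 1 of them fell in the male and rose in the female comparison.

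At Dlx5/Dlx6, 7 probes were measured in the male comparison, of which 6 fell and 0 rose, and the median log2 fold was -1.55. The falls were 85.7% of these probes, against 56.0% of measured autosomal probes, whose median was -0.68. In the female comparison 8 were measured, 3 rose and 4 fell, with a median of -0.60, which became 0.93 over the 5 probes readable on both arrays. Rises were 37.5% and falls 50.0%, against 28.8% and 36.3% of measured autosomal probes. The first of the 4 runs, chr6:6810707-6811027 with 3 probes, had no measured probe in either comparison. The run at chr6:6812696-6814128, with 7 probes, had 3 of 4 measured probes fall in the male comparison (median -1.58) and 1 rise and 1 fall among 3 in the female comparison (median -0.16).

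The probe at chr6:6813006-6813052 of that run had the highest ratio of any member on any array. Its log2 ratio was 6.27 on the Sham male and 1.99 on the Sham female array, and 2.11 on the male-labelled and 2.92 on the female-labelled TiO2-H array. The processed Cy5 signal behind it was 21869 on the Sham male array and between 1089 and 1449 on the other 3 arrays, while Cy3 ran from 343 to 464 over all 4. The Sham male array stood alone, and the other 3 lay within 0.93 of each other. The male log2 fold was -4.16 and the female one 0.93. The Sham female array minus the Sham male array gave -4.28, a gap between unexposed pools that was as large as that between exposure groups.

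Further along the run, the probe at chr6:6813819-6813863 fell in both comparisons. Its ratio was -1.24 on the Sham male and 0.11 on the Sham female array, and -3.80 on the male-labelled and -1.69 on the female-labelled TiO2-H array. The drop was at least 3.02-fold in the male comparison, where the male-labelled TiO2-H array was dim, and 3.49-fold in the female comparison, where both arrays were readable. Against Sham male, the female-labelled TiO2-H array gave a log2 fold of -0.45, which did not pass the fold. The probe at chr6:6813573-6813617, placed inside Dlx6 by the study's probe table, was readable on all arrays, with ratios of -1.15, -0.61, -1.12 and -0.77 in the same order. Its male log2 fold of 0.03 and its female one of -0.16 did not pass the threshold.

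In the run at chr6:6829220-6830320, with 8 probes, the probe at chr6:6829299-6829343 was the one member readable on all 4 arrays. It had ratios of 3.42 on the Sham male and 1.63 on the Sham female array, and 1.53 on the male-labelled and 2.90 on the female-labelled TiO2-H array. The male log2 fold was -1.89 and the female one 1.27. The probe at chr6:6831381-6831425, in the last run (chr6:6831381-6831977, 6 probes), behaved alike, with ratios of 2.67, 0.97, 1.12 and 2.02 in the same order and log2 folds of -1.55 and 1.06. At both probes the Sham male array and the female-labelled TiO2-H array were high and the other two low. The lowest mean ratio of the locus was at chr6:6831846-6831891, with -2.09, -0.30, -1.85 and -2.72, and Cy5 was readable there on the Sham female array alone.

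Nkx2-1 was covered by 1 run of 25 probes over chr12:57633864-57637717. In the male comparison 9 probes were measured, 5 fell and 0 rose (median log2 fold -0.60, or 0.19 with bounds). The falls were 55.6% of these probes, against 56.0% of measured autosomal probes, whose median was -0.68. In the female comparison 10 were measured, 4 rose and 4 fell (median -0.19, or 1.00 over the 4 probes readable on both arrays). Rises and falls were 40.0% each, against 28.8% and 36.3% of measured autosomal probes. On the Sham male array 13 of the 25 probes were readable, on the Sham female array 11, and on either TiO2-H array 5.

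The highest ratios of the Nkx2-1 locus were at chr12:57634159-57634203, with 3.82 on the Sham male and 2.54 on the Sham female array, and 2.55 on the male-labelled and 3.63 on the female-labelled TiO2-H array. The male log2 fold was -1.27 and the female one 1.09. Paired by X-linked input, the same probe gave -0.19 (female-labelled TiO2-H array over Sham male) and 0.0084 (male-labelled TiO2-H array over Sham female). As at Dlx5/Dlx6, the Sham male array and the female-labelled TiO2-H array were high and the other two low.

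The study's probe table placed 2 probes in the Nkx2-1 promoter and 2 inside the gene. The promoter probe at chr12:57636766-57636810 was readable on all arrays, with ratios of 1.67 on the Sham male and 1.56 on the Sham female array, and 1.60 on the male-labelled and 2.48 on the female-labelled TiO2-H array. The female-labelled TiO2-H array was high and the other 3 were level, with a male log2 fold of -0.07 and a female one of 0.92. The promoter probe at chr12:57636900-57636944 had ratios of -1.81, -0.47, -1.72 and -1.30 in the same order and was readable on the Sham arrays alone. The female comparison was a drop of at least 1.20-fold, and the male log2 fold of 0.10 did not pass the threshold. The probes inside the gene, at chr12:57634754-57634798 and chr12:57635707-57635751, were readable on the Sham arrays alone as well, and neither passed the fold in either comparison.

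Both probes of the Nkx2-1 locus that fell in both comparisons lay close together, with starts 194 bp apart, and are not independent. The probe at chr12:57637056-57637100 had ratios of -0.96 on the Sham male and -0.22 on the Sham female array, and -3.01 on the male-labelled and -1.64 on the female-labelled TiO2-H array. The probe at chr12:57637250-57637294 had -1.95, -0.02, -3.24 and -2.40 in the same order, the lowest mean of the locus. Both TiO2-H arrays were below both Sham arrays at both probes, and Cy5 was dim on both TiO2-H arrays. The drops in the female comparison were at least 1.62-fold and at least 2.81-fold. For the male comparison no fold can be given, since the direction was lost when the dim signal was raised to the bound.

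At Pax6, 7 probes were measured in the male comparison, 4 fell and 0 rose (median log2 fold -0.58, or 0.46 with bounds). The falls were 57.1% of these probes, against 56.0% of measured autosomal probes, whose median was -0.68. The female comparison measured 15, of which 2 rose and 11 fell (median -1.42, or 0.24 with bounds). These falls were 73.3% of the measured probes, against 36.3% of measured autosomal probes. Cy5 was dim on the female-labelled TiO2-H array in all 11 falls, and 1 of them passed the fold as a bound. On the Sham female array 18 of the 34 probes were readable, against 10 on the Sham male array, 4 on the male-labelled TiO2-H array and 5 on the female-labelled TiO2-H array. The Sham female array alone was readable at 8 of the 34 probes, more than at any of the other 3 loci. In the female comparison a probe dim on the female-labelled TiO2-H array counted as measured only if it was readable on the Sham female array. That all 11 falls at Pax6 were readable on the Sham female array was thus set by the filter and is not a result.

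Of the 5 runs, chr2:105514783-105516942 was the longest, with 17 probes. In the male comparison 2 of 4 measured probes fell (median -0.50), while 2 rose and 6 fell of 9 measured in the female one (median -1.27). The lowest mean ratio of the locus was at chr2:105515590-105515636, with -2.43 on the Sham male and 0.06 on the Sham female array, and -2.59 on the male-labelled and -3.11 on the female-labelled TiO2-H array. The Sham female value stood apart from the other 3, and the female comparison was a drop of at least 1.88-fold. This probe and its neighbours at chr2:105515455-105515507, chr2:105515679-105515724 and chr2:105515765-105515813 (chosen after their values were seen) were all readable on the Sham female array alone. Ratios on that array at the 4 probes ran from -0.39 to 0.06, while the other 3 arrays, all dim, ran from -3.11 to -1.22. The run nearest the window's start, chr2:105500096-105500460 with 3 probes, had none measured, and the last run, chr2:105521667-105522627 with 4 probes, had 1, which fell in the female comparison without a bound past the fold.

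At the other end of the longest run 4 probes were readable on every array. The probe at chr2:105516343-105516387, placed in a divergent promoter of Pax6 by the study's probe table, had the highest mean ratio of the locus among probes with readable Cy3 on 4 arrays, with 1.81 on the Sham male and 1.28 on the Sham female array, and 1.79 on the male-labelled and 2.36 on the female-labelled TiO2-H array. The male log2 fold was -0.02 and the female one 1.09, so the probe rose in the female comparison alone. That the comparisons differed was not tested.

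In the run at chr2:105508873-105510003, with 7 probes, 1 of 2 measured probes fell in the male and 2 of 3 fell in the female comparison. The probe at chr2:105509058-105509107, placed inside Pax6os1, a noncoding transcript on the opposite strand of Pax6, had ratios of -0.36 on the Sham male and -0.12 on the Sham female array, and -0.24 on the male-labelled and -2.06 on the female-labelled TiO2-H array. The female-labelled TiO2-H array was low, and the drop in the female comparison was at least 1.24-fold, with no MeDIP signal readable on either TiO2-H array. In the run at chr2:105512616-105512987, with 3 probes, the probe at chr2:105512773-105512820 fell in both comparisons. Its ratios were 2.61 on the Sham male and 0.52 on the Sham female array, and -0.38 on the male-labelled and -0.90 on the female-labelled TiO2-H array. Both TiO2-H arrays were dim and below both Sham arrays, and the Sham arrays were themselves apart by 2.08. The male comparison was a drop of at least 1.64-fold, and the female comparison had no direction as a bound.

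Of the 29 member probes measured in both comparisons, 10 fell in the male and rose in the female comparison, 5 fell in both, and 0 rose in both. The 10 comprised 3 at Dlx1/Dlx2, 3 at Dlx5/Dlx6, 3 at Nkx2-1 and 1 at Pax6, and 8 of them were readable on all 4 arrays. Of the 5 that fell in both, none was readable on all 4 arrays. With the arrays paired by X-linked input 28 probes were measured in both, 2 fell in both, and 13 passed the fold in neither. Of the 8 probes that had moved in opposite ways, 5 stayed under the fold in both crossed comparisons. These joint counts were not taken over all autosomal probes, so whether the members differ in them from the whole array is not known. Of autosomal probes readable on both arrays compared, 58.4% fell in the male comparison and 53.7% rose in the female one.

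**Figure D4:**
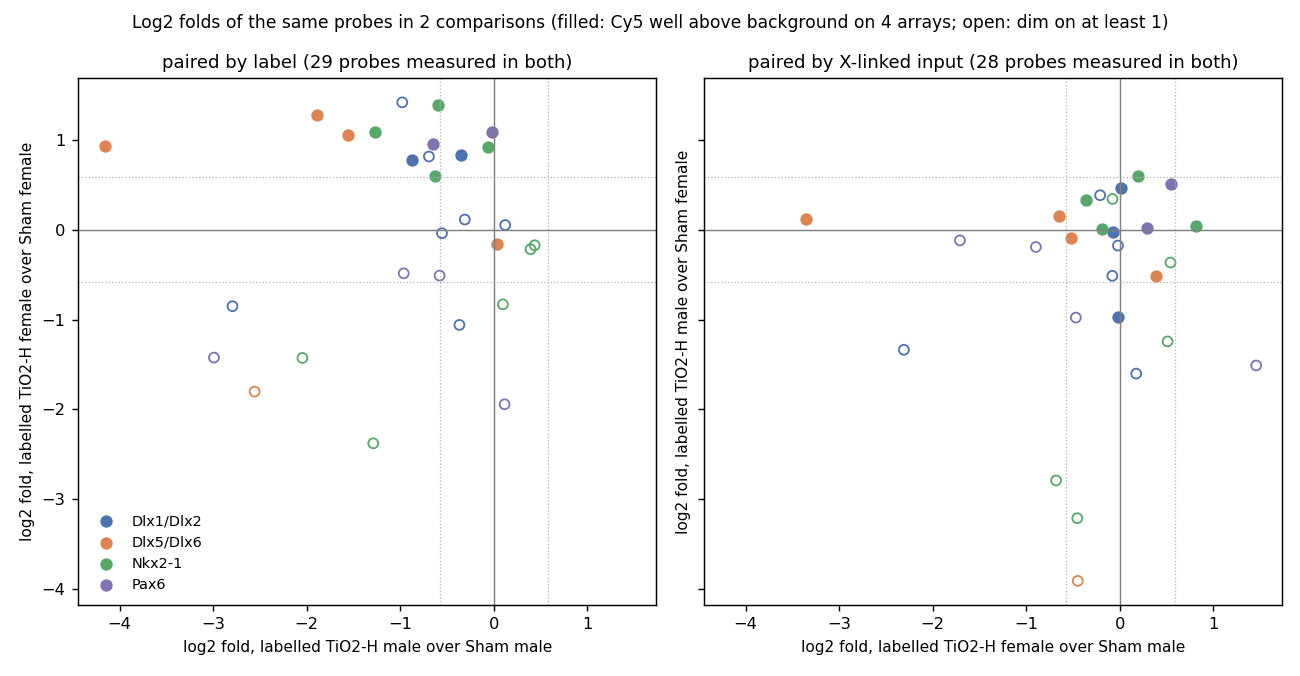
Log2 folds of member probes measured in 2 comparisons, paired by label (left, 29 probes) and by X-linked input (right, 28 probes), 1 point per probe coloured by locus. Filled points have Cy5 well above background on all 4 arrays, and dotted lines mark folds of 1.5 and 0.67. On the left 10 probes lie past both lines at the upper left, and on the right most filled points lie inside the lines.

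In the crossed comparisons, the female-labelled TiO2-H array over Sham male had 2 rises and 10 falls among 35 measured members, where 10.3% of autosomal probes rose and 22.1% fell. The male-labelled TiO2-H array over Sham female had 1 rise and 23 falls among 45, where 3.36% rose and 46.2% fell, and 22 of the 23 falls had a dim Cy5 signal. Of the members readable on both arrays, 2 rose and 2 fell among 20 in the first, and 1 rose and 1 fell among 14 in the second. At readable members, falls and rises were thus few when X-linked input was matched. This was not particular to the members. Over the 20591 autosomal probes readable on all 4 arrays, median absolute differences were 0.67 and 0.69 paired by label. They were 0.32 and 0.26 paired by X-linked input. Shares of readable autosomal probes that rose or fell were not taken for the crossed comparisons.

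Arrays of the same exposure were compared as well. They also differ in labelled sex, X-linked input and slide, which cannot be told apart here from the spread between pools. The Sham female array over the Sham male array had 54 measured members, of which 24 rose and 18 fell, and of 45145 autosomal probes 32.0% rose and 33.0% fell. In 17 of the 24 rises Cy5 was dim on the Sham male array, and of the 34 members readable on both Sham arrays 7 rose and 16 fell (median log2 fold -0.46). The female-labelled TiO2-H array over the male-labelled TiO2-H array had 20 measured members, of which 14 rose and 0 fell, and 63.7% of autosomal probes rose and 1.02% fell. The locus medians between the Sham arrays ran from -0.26 at Dlx1/Dlx2 to 1.14 at Pax6. Over members readable on both Sham arrays they were -0.82 at Dlx1/Dlx2, -1.19 at Dlx5/Dlx6, 0.095 at Nkx2-1 and -0.19 at Pax6, so the direction at Pax6 and Dlx5/Dlx6 turned once dim probes were left out. Pools that share an exposure thus also differed past 1.5-fold at most measured members.

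The one comparison with more than 1 array a side set both TiO2-H arrays against both Sham arrays, fitted with limma over 39861 autosomal probes, 39 of them members. By limma with Benjamini-Hochberg adjustment 0 members passed 0.05, and the smallest adjusted p of a member was 0.337. Over all probes 37 were lower in TiO2-H (0.0928%) and none was higher. At an unadjusted p under 0.05, 5 of the 39 members were lower and 0 higher, where 5.34% of all probes were lower. These were the 5 probes that fell in both comparisons, and the criteria share their values. A probe entered the fit with Cy5 readable on 2 arrays or more. Cy5 was readable on both Sham arrays only at 13 members and 11130 autosomal probes. It was readable on both TiO2-H arrays only at 0 members and 1 autosomal probe. The filter thus favoured probes lower in TiO2-H, and the direction of the 5 is not a separate result. The Pax6 probe at chr2:105512773-105512820 had the largest difference, with a mean log2 ratio of 1.57 in Sham and -0.64 in TiO2-H, a difference of -2.21 (SE 0.65, n = 2 arrays each, limma adjusted p = 0.337). With the slide as a block the smallest adjusted p was 0.353 and again no member passed. An exact permutation test of 2 arrays against 2 cannot give a p below 0.333, and on simulated data with this spread limma called 0 of 200 probes changed by 2 on the log2 scale and 136 changed by 3.

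Among 25 further forebrain patterning genes (such as Lhx6 and Lhx8, which act after Nkx2-1 in interneurons, Gsx2, which acts before the Dlx genes, and Emx1, Neurog2 and Tbr1 of the cortical lineage), 11 could be placed through the study's probe table, with 156 probes in 15 regions. Of these, 91 were measured in the female comparison, 24 rose (26.4%) and 41 fell (45.1%). In the male comparison 77 were measured, 4 rose (5.19%) and 38 fell (49.4%), against 3.14% and 56.0% of measured autosomal probes. The table was ordered by the male fold and held here only in part, so that count is not independent of the male values. The same choice of genes and regions lies behind the female counts, and its part in them was not tested. Of genes picked after their values were seen, Gsx2 had 0 rises and 4 falls among 6 measured probes in the female comparison, and Neurog2 had 4 rises and 2 falls among 7. The shares in the female comparison lay between those of the members and of all autosomal probes for falls, and a little under both for rises.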

How the data were processed

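Pooled DNA of 4 groups was measured on 4 Agilent arrays with 2 colours (MeDIP DNA in Cy5, input DNA in Cy3, no dye swap). Per the file headers, the authors used Feature Extraction 10.7.3.1 and the mm9 build. The deposited processed signals are linear intensity values, background-subtracted and multiplied by 1 factor for each dye of each array. Spot medians and local background medians were deposited as raw intensity values. The deposited log ratio is a log10 value, equal to the series table within 5e-10, and the p-value deposited beside it is that of the scanner's error model for 1 spot.

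Of 94687 spots, 4914 were positive and 1036 negative controls, which were not used. The log2 ratio of processed signals was centred on each array's median over 85850 autosomal probes, with no loess or quantile step. Folds, locus medians and counts were computed in Python 3.11.15 (pandas 2.3.3, numpy 2.4.6, figures with matplotlib 3.10.9) and the fit with limma 3.58.1 in R 4.3.3, with Benjamini-Hochberg adjustment over all 39861 probes with readable Cy3 on 4 arrays and readable Cy5 on 2 or more. The normexp alternative (offset 50) used median spot signals, the only raw spot signals in the files. The counting step was tested on simulated data and returned the planted rises and falls. Precision is limited by the number of arrays.

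Gene names of probes come from the study's probe table, read from page text and kept only where the position equalled the file's and the symbol was one of RefSeq's. They cover 7 members. All 4 loci and every run of at least 3 probes are described. Single probes are named by 5 criteria: the highest or lowest mean ratio of a locus among probes with readable Cy3 on 4 arrays, a change in the same direction in both comparisons with Cy5 readable on 4 arrays (none did so), the 4 largest opposite changes with Cy5 readable on 4 arrays, an adjusted p under 0.05 (none), and a gene symbol. The probes that fell in both comparisons, and the probe at chr2:71379207-71379251, were named after their values had been seen. Members, lists and tests were chosen with earlier results of these data known.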

Additional observations from a re-analysis of the deposited data

Results flagged for a closer look

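Several results moved in opposite directions in the comparisons of the labelled sexes, and the difference itself was not tested, since each comparison has 1 array a side. Over the 20591 autosomal probes readable on all 4 arrays, the median log2 difference was -0.63 for male-labelled TiO2-H minus Sham male. For female-labelled TiO2-H minus Sham female it was 0.66, so opposite directions were not particular to the members. At the 16 members readable on all 4 arrays these medians were -0.61 and 0.91. Whether the results listed here go beyond the autosomal medians was not tested. In the second run of Dlx1/Dlx2 (chr2:71378997-71379702) the male comparison had a median log2 fold of -1.31 over 5 measured probes. The female one had 0.82 over 3 of these. The Dlx5/Dlx6 probe at chr6:6829299-6829343 gave -1.89 and 1.27, the probe at chr6:6831381-6831425 gave -1.55 and 1.06, and the probe at chr6:6813006-6813052 gave -4.16 and 0.93. The Nkx2-1 probe at chr12:57634159-57634203 gave -1.27 and 1.09. Paired by X-linked input, the probe at chr6:6829299-6829343 gave -0.52 (female-labelled TiO2-H array over Sham male) and -0.09 (male-labelled TiO2-H array over Sham female), and the probe at chr6:6831381-6831425 gave -0.65 and 0.15. The probe at chr6:6813006-6813052 gave -3.35 and 0.12, so its Sham male value stood apart in both pairings.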

How the results depend on the processing

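Of 103 recomputed values, 47 stayed on their side of the threshold (or within 1.5 times for a count) with no change of direction past it, but 3 of these, medians under the threshold in both settings, changed sign and are given with their locus. For each other value the cause was not tested, apart from settings that keep fewer or more probes. The count of rises in the male comparison (0) became 41 with no filter and 2 with arrays paired by X-linked input. Its falls (21) became 10 after normexp background correction, 9 where Cy5 had to be readable on both arrays, 33 with no filter and 10 with arrays paired by X-linked input. Rises in the female comparison (13) became 3 without centring, 1 each with a common spread, quantile normalization, normexp background correction and pairing by X-linked input, and 40 with no filter. Its falls (26) became 2 where Cy5 had to be readable on both arrays.

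The male median log2 fold of Dlx1/Dlx2 (-0.62) became -0.54 without centring, -0.57 with a common spread, -0.56 with quantile normalization, -0.075 with normexp, -0.34 with no filter and -0.045 paired by X-linked input. That of Dlx5/Dlx6 (-1.55) became -0.30 with normexp, 0.45 with no filter and -0.51 paired by X-linked input. That of Nkx2-1 (-0.60) became -0.52 without centring, -0.19 with a common spread, -0.17 with quantile normalization, 0.0050 with normexp, 0.057 with no filter, -0.14 paired by X-linked input and -0.55 as a mean. That of Pax6 (-0.58) became -0.50 without centring, -0.53 with a common spread, -0.50 with quantile normalization, -0.0089 with normexp, -0.34 with Cy5 readable on both arrays, 0.41 with no filter and -0.47 paired by X-linked input.

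The female median of Dlx1/Dlx2 (-0.45) became -0.95 without centring, -0.62 with normexp, 0.80 with Cy5 readable on both arrays, 0.0063 with no filter and -1.02 paired by X-linked input. That of Dlx5/Dlx6 (-0.60) became -0.46 with a common spread, -0.20 with quantile normalization, 0.93 with Cy5 readable on both arrays, 0.20 with no filter, -0.51 paired by X-linked input and -0.53 as a mean. That of Nkx2-1 (-0.19) became -0.70 without centring, -0.90 with normexp, 0.023 with quantile normalization, 0.47 with no filter and 1.00 with Cy5 readable on both arrays. That of Pax6 (-1.42) became -0.44 with normexp, 1.02 with Cy5 readable on both arrays and -0.32 with no filter.

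Members called by limma (0) became 1 with a common spread, the Pax6 probe at chr2:105512773-105512820 (adjusted p = 0.0396 in that limma fit). They ran from 0 to 3 when 1 array was left out, the lone array of its group being taken to vary like the other group: 2 without the Sham male array, 3 without the Sham female array, 0 without the male-labelled TiO2-H array and 1 without the female-labelled TiO2-H array. Quantile normalization, normexp, no centring, no filter on Cy5 and a block for slide or for X-linked input gave 0 members. The blocks for slide and for X-linked input each paired 1 TiO2-H with 1 Sham array. Replicate numbers gave no further pairing, since each group has a single array, numbered 1. Brightness limits the rest: Cy5 was readable on all 4 arrays at 16 of 115 probes, so at the other probes a fold is a bound wherever 1 of the arrays compared was dim.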
